A study of Schizosaccharomyces pombe with 2 samples.

Results

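The 10 genes followed here act in iron uptake and its control, and their mRNA was measured in *S. pombe* cells of a wt and an *sgo2*Δ strain. They were taken by name, as the probe sets whose platform gene symbol is *str1*, *str2*, *str3*, *sib1*, *sib2*, *fio1*, *fip1*, *frp1*, *fep1* or *php4*. In systematic names, the siderophore genes are SPBC4F6.09 (*str1*), SPCC61.01C (*str2*), SPAC1F8.03C (*str3*), SPAC23G3.02C (*sib1*) and SPAC23G3.03 (*sib2*). The genes of reductive uptake are SPAC1F7.08 (*fio1*), SPAC1F7.07C (*fip1*) and SPBC1683.09C (*frp1*), and the regulators are SPAC23E2.01 (*fep1*) and SPBC16E9.01C (*php4*), where SPA, SPB and SPC stand for chromosomes 1, 2 and 3. All 10 had a probe set, and each had 1 of its own among the 2899 genes with such a probe set. The wt strain JK107 and the strain JP2247, deleted for *sgo2*, are both of the h- mating type. *S. pombe* is a single-celled yeast, and both strains were growing exponentially in the rich medium YES at 32 °C. Per strain 1 GeneChip Yeast Genome 2.0 Array was hybridized, starting from 0.3 μg of RNA with a poly(A) tail. Sgo2, or Shugoshin 2, is a centromeric protein that also binds the subtelomeres. The arrays address whether gene expression differs without it. A signal averages over the whole asynchronous culture, so a change in the share of cells that express a gene cannot be told apart from a change in the RNA per cell. With 1 array per strain no difference has a replicate check and no p-value is given. The number of arrays limits the precision.

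Fission yeast takes up iron by a siderophore route and by a reductive route. In the siderophore route, small iron chelators such as ferrichrome are made, released and brought back into the cell by transporters. In the reductive route, a reductase at the cell surface turns ferric into ferrous iron, and a ferroxidase and a permease carry it across the membrane. The GATA-type repressor Fep1 turns off the genes of both routes when iron is plentiful. When iron is scarce, Php4 joins the CCAAT-binding proteins Php2, Php3 and Php5 and turns down genes of proteins that use iron.

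The values are linear signal intensities, as scaled by the authors. A call, higher or lower, was made for a difference of at least 2-fold in which the brighter signal reached 100. Of 2899 genes, 2796 reached a signal of 100 on at least 1 array. Among them 15 genes, or 0.536%, were called higher in *sgo2*Δ cells, and 1 gene, or 0.0358%, was called lower. The 1 lower gene was the deleted *sgo2* itself, whose signal of 581.5 in wt stood against 2.81 in the deletion strain, a difference of at least 5.82-fold when taken against 100. The median log2 ratio of the 2796 genes (*sgo2*Δ minus wt) was 0.13, and 84.7% of them lay above 0, so the ratio of a single gene is best read against 0.13. The brightest of the 17 tag controls, probe sets without a target in yeast RNA, had a signal of 47.7 in wt, and of 43.9 in *sgo2*Δ.

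Of the 10 iron genes, 1 was called higher in *sgo2*Δ cells, beside 0.536% of all genes, and 0 were called lower, beside 0.0358%. Over all 4772 probe sets that reached 100, with or without a gene name, these shares were 1.404% and 0.0210%. The 1 called iron gene was *str3*, the only one of the 10 within 200 kb of a telomere of chromosome 1 or 2, and its call rested on a wt signal under 100. All 15 genes called higher lay within 200 kb of these telomeres. Among the 2725 genes that reached 100 over 200 kb from these telomeres or on chromosome 3, 0 were called higher. The share of 0.536% is therefore not that of genes placed like *str3*, which was not computed. The median log2 ratio of the 10 genes was 0.05, and without *str3* it was 0.003. Both stand under the median of 0.13 for all genes, and 6 of the 10 genes lay under it. The log2 ratios ran from -0.41 (*fio1*) to 1.13 (*str3*), and the 8 genes other than these ran from -0.37 (*fip1*) to 0.27 (*sib1*). All 10 genes reached a signal of 100, but *str3* did so only on the *sgo2*Δ array.

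**Figure D1:**
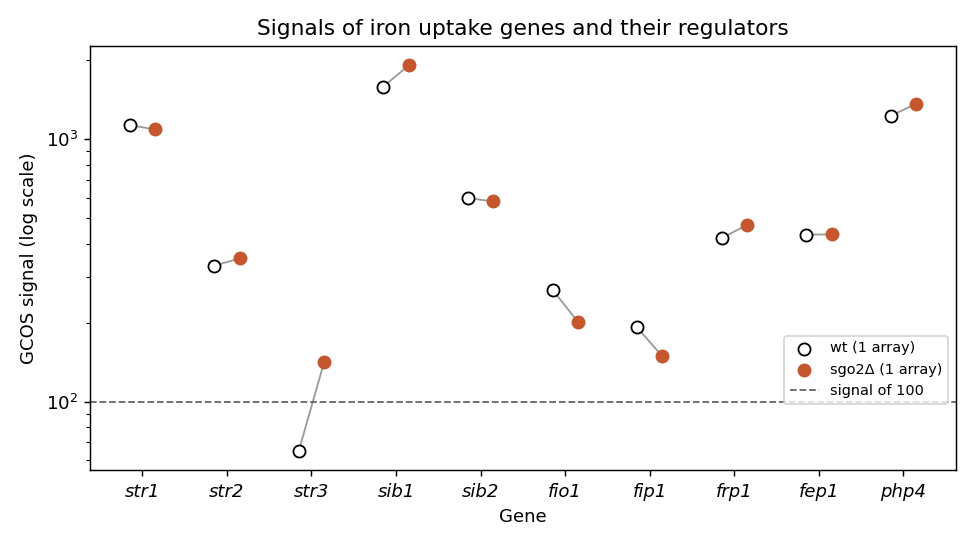
GCOS signal (log axis) of the 10 iron genes in wt (open circles) and *sgo2*Δ (filled circles), 1 array each, with a line joining the values of a gene and a dashed line at a signal of 100. Only *str3* crosses 100, from 64.9 to 141.6, and *fio1* and *fip1* are the 2 genes with the steepest downward lines. Heights of different genes come from different probes and are not comparable.

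Among the siderophore transporters, *str3* was called and its 2 relatives were not. *str1* encodes a transporter of ferrichrome, and its wt signal of 1134 compared with 1091 in *sgo2*Δ (log2 ratio -0.06). *str2* encodes a second siderophore-iron transporter, with a wt signal of 330.0 and an *sgo2*Δ signal of 351.6 (0.09, or -0.04 when ratios were centred on all genes). *str3* encodes a transporter of the same group that is also known to take up heme. Its wt signal of 64.9 compared with 141.6 in *sgo2*Δ, a 2.18-fold difference by measured signals (log2 ratio 1.13). Its wt signal lay under 100 but above the brightest tag control. Against a signal of 100 it was at least 1.42-fold higher.

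Each ratio was set beside those of the 200 genes nearest to it in mean signal. The SD of these ratios ran from 0.14 around *str1* to 0.55 around *str3*, and from 0.12 around *php4* to 0.30 around *str3* when genes within 200 kb of the telomeres of chromosomes 1 and 2 were left out. For *str3* the central 95% of these 200 ratios ran from -0.53 to 1.16, and 6 of the 200 were as high as *str3* or higher. Of these 6 genes, 5 lay within 200 kb of a telomere of chromosome 1 or 2. When the 200 were drawn only from genes over 200 kb from these telomeres or on chromosome 3, a choice made after seeing the data, the upper end was 0.64, and 1 of the 200, a gene under 100 on both arrays, was as high. Among the 2796 genes that reached 100, 11 including *str3* had a ratio as high as its own, and all 11 lay within 200 kb of these telomeres. A wt signal under 100 was found for 122 genes besides *str3*. Of these, 19 reached 100 in *sgo2*Δ and 5 were called higher. Over 200 kb from these telomeres or on chromosome 3 the same was true of 13 and 0 of 114 genes. Genes so dim in wt pass the floor only through their *sgo2*Δ signal, as *str3* did, and could not be called lower. These counts therefore give no check of the call of *str3*.

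The call of *str3* was lost when the arrays were scaled in another way. Its log2 ratio was 0.9985 after centring, just under the 2-fold threshold, and 0.81 after quantile normalization. With a pseudocount of 100 it was 0.55. With all signals under 100 set to 100 it was 0.50. After centring and after quantile normalization it still had the highest ratio of the 10 genes.

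**Figure D2:**
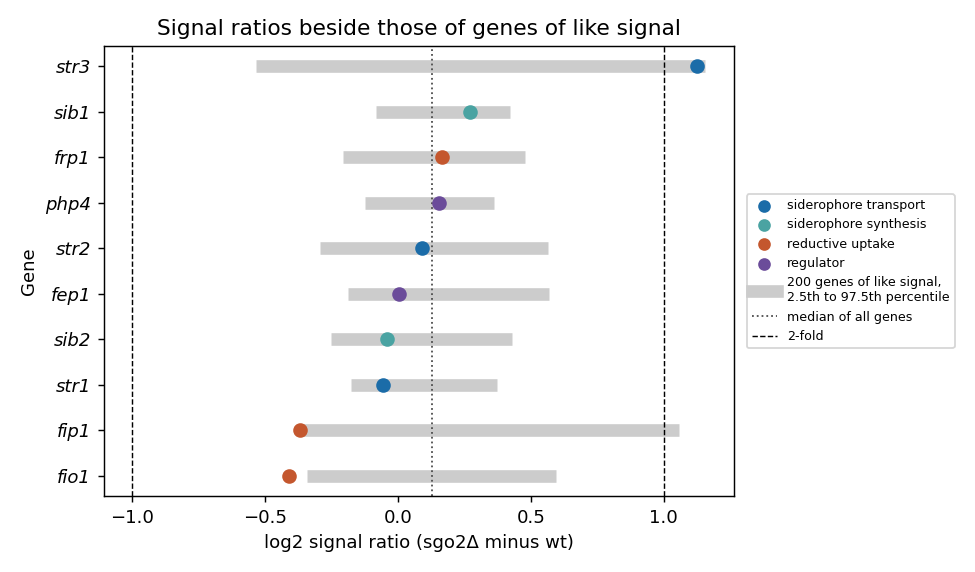
Log2 signal ratio (*sgo2*Δ minus wt) of each iron gene (points, coloured by role) over the central 95% of the ratios of the 200 genes nearest in mean signal (grey bars), with the median of all genes (dotted) and 2-fold (dashed). *fio1* lies below its bar, *fip1* lies at the lower end and *str3* near the upper end of theirs, and the others lie well inside.

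*str3* lies 101 kb from *tel1L* when the equations for distance in the study's methods are used with the midpoints of genes in ASM294v3, a genome assembly. The study's text names no assembly, so this distance holds only as far as that assembly matches. Of its 3 nearest measured neighbours on the telomere side, 2 were called higher in *sgo2*Δ cells. *ght3*, a hexose transporter gene located 2 protein-coding genes away, had signals of 85.4 (wt) and 541.9 (*sgo2*Δ, at least 5.42-fold higher against 100). *dak2*, a dihydroxyacetone kinase gene located 6 genes away, had signals of 776.9 and 2332 (log2 ratio 1.59). *nhe1*, 11 genes away, had 3697 and 4955 (log2 ratio 0.42). On the side away from the telomere, *isp3* stayed under 100 on both arrays (55.8 and 92.3). The next measured genes there, *pfl8* (282.9 and 276.5, log2 ratio -0.03) and *mfs2* (959.8 and 1118, 0.22), were not called. Among the genes named by a probe set, *str3* was the called gene farthest from *tel1L* within 200 kb. Of the 13 such genes that reached 100 between *str3* and 200 kb from *tel1L*, 0 were called (median 0.07, range -0.04 to 0.48). The 2062 probe sets with no gene name were not placed on the chromosomes, so where raised signals end on this arm was not tested. The gene next to *str3* on the telomere side is *shu1*, which encodes a heme-binding protein of the cell surface. No probe set analysed here names *shu1* or *hhy1*, the gene next to *str3* on the other side.

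**Figure D3:**
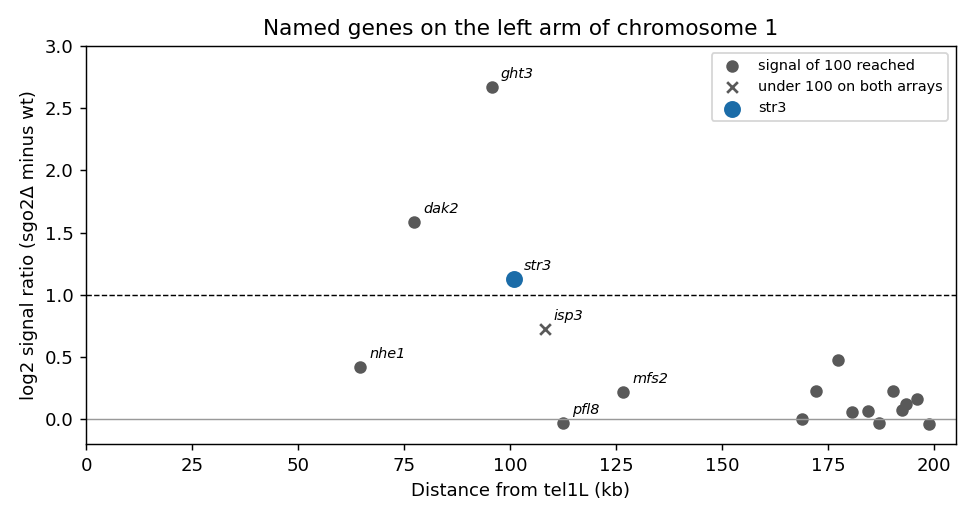
Log2 signal ratio (*sgo2*Δ minus wt, 1 array each) of named genes against distance from *tel1L* in kb, with *str3* in blue, crosses for genes under a signal of 100 on both arrays and a dashed line at 2-fold. *dak2*, *ght3* and *str3* lie above the line, and every plotted gene farther from *tel1L* than *str3* lies below it.

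The remaining 9 iron genes lie over 200 kb from these telomeres or on chromosome 3. The nearest of them to a telomere is *frp1*, 209 kb from *tel2L*. Around these 9 genes, 3 measured genes were taken on each side. Of 41 such neighbours that reached 100 and are not iron genes of the set, 0 were called higher or lower, and their median log2 ratio was 0.10. The largest among them was that of *mug14* (0.69, signals 344.8 and 554.7), 9 genes from *frp1* on its telomere side. Of all 2725 genes that reached 100 over 200 kb from these telomeres or on chromosome 3, 0 were called higher. In that set 1 gene, *sgo2*, was called lower, so 0 calls is no trait of these neighbours.

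The siderophore synthesis genes are neighbours, with no protein-coding gene between them. *sib1* encodes the peptide synthetase that assembles ferrichrome, and its wt signal of 1589 compared with 1918 in *sgo2*Δ (log2 ratio 0.27, or 0.14 after centring). *sib2* encodes the ornithine hydroxylase of the first step, with signals of 597.2 and 580.1 (-0.04, or -0.17 after centring). Both lay within the range of genes of like signal, and neither differed 2-fold. Their ratios were 0.31 apart, and 147 of 1601 pairs of adjacent protein-coding genes that both reached 100 were at least as far apart, against a median distance of 0.12.

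For the reductive route, the ferroxidase and permease genes had the lowest ratios of the set. *fio1*, which encodes the multicopper ferroxidase, had a wt signal of 267.2 and an *sgo2*Δ signal of 201.4, 1.33-fold lower (log2 ratio -0.41). *fip1* encodes the iron permease that works with Fio1, and its signals were 191.8 and 148.7, 1.29-fold lower (-0.37). Both stayed well under 2-fold, and both signals reached 100 on each array. *fio1* was the only one of the 10 genes outside the central 95% of genes of like signal, which began at -0.34 there, and 1 of the 200 was as low. For *fip1* this range began at -0.367, which is also its own ratio to the third decimal, and 6 of the 200 were as low. Among all 2796 genes, 6 including *fio1* and *sgo2* had a ratio as low as that of *fio1*, and 11 had one as low as that of *fip1*. After quantile normalization their log2 ratios were -0.66 and -0.68, and after centring -0.54 and -0.50.

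*fio1* and *fip1* lie next to each other in gene order. Of the 1601 adjacent pairs that both reached 100, this was the only pair in which both genes had a ratio as low as that of *fip1*. Only 11 of all 2796 genes were that low, so few pairs could be. As the pair itself set the limit, the count gives no check of *fio1* and *fip1*. Their measured neighbours gave no such ratios, with *cdc22* at 0.06 (signals 3181 and 3310) and *rho1* at 0.06 (5082 and 5291) on the side of *fip1*, and *yak3* at 0.11 (2377 and 2571) on the side of *fio1*. These 3 ratios, under the 0.13 of all genes, lay below 0 once centred and after quantile normalization. *pcr1*, 6 genes from *fio1*, had -0.24 (1082 and 918.1). The reductase gene *frp1*, whose product supplies ferrous iron to this route, did not share the low ratio. Its wt signal of 420.6 compared with 471.7 in *sgo2*Δ (0.17, or 0.04 after centring and -0.008 after quantile normalization). The gene next to *frp1* is *pcl1*, which encodes a transporter of iron into the vacuole.

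**Figure D4:**
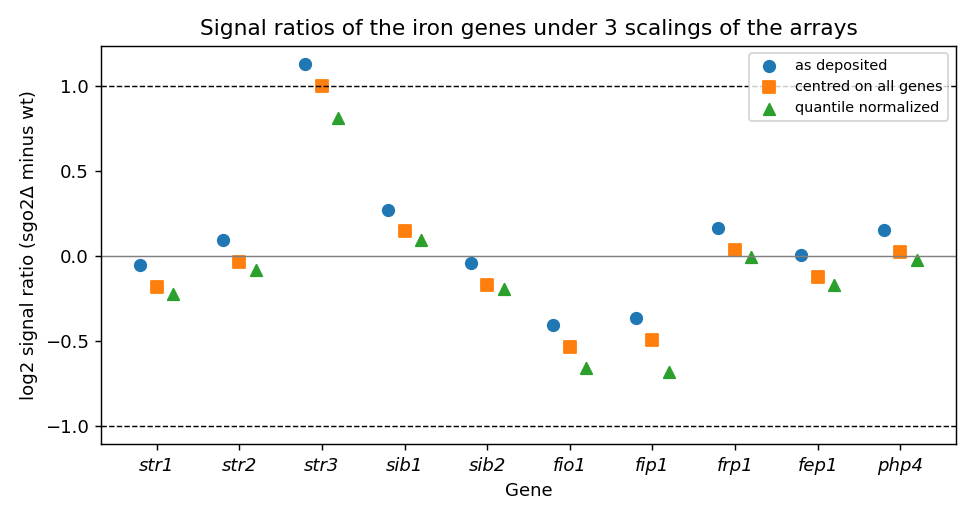
Log2 signal ratio (*sgo2*Δ minus wt) of each iron gene with the signals as deposited, after centring on the median of all genes and after quantile normalization, with dashed lines at 2-fold. Only *str3* passes 2-fold, and only as deposited, while *fio1* and *fip1* are the lowest of the 10 under each scaling.

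Neither regulator gene differed 2-fold, and their ratios lay on either side of the median of all genes. *fep1*, the gene of the iron-dependent repressor, had a wt signal of 433.5 and an *sgo2*Δ signal of 434.4 (log2 ratio 0.003, or -0.13 after centring). *php4*, the gene of the regulator used in iron shortage, had signals of 1230 and 1367 (0.15, or 0.02 after centring and -0.02 after quantile normalization). Both lay within the range of genes of like signal, which was -0.19 to 0.57 for *fep1* and -0.12 to 0.36 for *php4*.

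In order of their ratios, the genes run *str3*, *sib1*, *frp1*, *php4*, *str2*, *fep1*, *sib2*, *str1*, *fip1* and *fio1*. The gap between *str3* and *sib1* was 0.86, more than the SD of genes of like signal (0.55 at *str3*). Its size rests on the wt signal of *str3*, which lay under 100. With signals under 100 set to 100, *str3* had 0.50 and *sib1* 0.27, and with a pseudocount of 100 they had 0.55 and 0.26. In both settings the 2 genes were closer together than that SD. The SD comes from the signals as deposited and was not recomputed for these settings, so the 2 measures are not alike. No other gap between neighbours in this order exceeded the larger SD of its 2 genes. The next widest gap, 0.31 between *str1* and *fip1*, was within an SD of 0.52, but above the 0.26 obtained from genes over 200 kb from the telomeres. Of the 8 genes of uptake proper, 4 lay above 0 and 4 below it, or 3 and 5 around the median of all genes. These signs depend on the scaling, as *str2* (-0.08) and *frp1* (-0.008) lay below 0 after quantile normalization. A part of Fep1 in these ratios was not tested.

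Proteins that work with the regulators were followed through 8 of 9 listed genes, and 0 of them were called (median log2 ratio 0.12). Of all genes 0.536% were called higher and 0.0358% lower, so 0 calls in so short a list says little about it. *tup11* and *tup12* encode related corepressors that act with Fep1. *tup11* had signals of 1814 (wt) and 2132 (*sgo2*Δ, 0.23), and *tup12* had 1046 and 846.8 (-0.31). The ratio of *tup12* was lower than those of all 200 genes of like signal, of which the lowest was -0.24. *grx4*, whose glutaredoxin product works with both regulators, had signals of 7859 and 8579 (0.13, or -0.002 after centring and 0.10 after quantile normalization). The CCAAT-binding genes *php2* (239.0 and 242.6, 0.02), *php3* (1323 and 1410, 0.09) and *php5* (809.4 and 880.1, 0.12) all lay under the 0.13 of all genes, so that centring puts them below 0 by construction, and they lay below 0 after quantile normalization too. *crm1*, whose product carries Php4 out of the nucleus, had 1450 and 1654 (0.19), and *sal3*, another nuclear transport gene, had 3175 and 3718 (0.23). Both ratios lay above 0 also after centring and after quantile normalization. *fra2* had no probe set that names it here.

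Of 6 further genes of iron and heme transport, 4 had a probe set and 0 were called, beside 0.536% (higher) and 0.0358% (lower) of all genes. Their median log2 ratio was 0.29, above the 0.13 of all genes, with 3 of 4 genes above that value and 1, *frp2*, just under it. The gene *fet4*, for a low-affinity transporter, had signals of 312.4 (wt) and 432.9 (*sgo2*Δ, 0.47). *abc3*, for a transporter of the vacuolar membrane, had 1190 and 1522 (0.36), and lies 173 kb from *tel2L*. *pcl1*, 212 kb from *tel2L*, had 4608 and 5349 (0.21), while *fet4* lies 376 kb from that telomere. A part of position in the list median was not tested. *frp2*, named as a ferric reductase, had 130.7 and 142.6 (0.13), which turned to -0.003 after centring and -0.26 after quantile normalization. Each of the 4 lay within the range of genes of like signal. The 2 genes without a probe set naming them were *shu1* and *sib3*.

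None of the genes followed for copper, zinc, heme or iron use was called, beside 0.536% (higher) and 0.0358% (lower) of all genes. Fio1 needs copper, and the 9 genes of copper handling had ratios from 0.02 (*ccs1*, a copper chaperone gene, -0.11 after centring as after quantile normalization) to 0.19 (*cox17*), with a median of 0.09. The 4 of 5 measured genes of zinc handling ran from -0.06 (*zym1*, metallothionein) to 0.18 (*cis4*), with a median of 0.10. Iron-sulfur cluster assembly was covered by 13 of 22 genes, from -0.08 (*isu1*, the scaffold protein, signals 2927 and 2760) to 0.33 (*isa2*, 1934 and 2425), with a median of 0.12. For heme synthesis, 7 of 8 genes ran from -0.02 (*hem15*, ferrochelatase) to 0.18 (*hem14*), with a median of 0.03. Of the iron-using enzymes, 16 of 21 were measured, from -0.14 (*cyc1*, cytochrome *c*, 5166 and 4691) to 0.22 (*sdh2*, a subunit of succinate dehydrogenase, 6510 and 7569). Their median was 0.06, and 12 of 16 lay under the median of all genes, while 11 of 16 lay under that of genes of like signal. Against the median of genes of like signal, the median difference of the iron-using enzymes was -0.04 and that of heme synthesis -0.08. The GATA factor genes *gaf1* (734.9 and 632.4) and *ams2* (472.4 and 458.8) had -0.22 and -0.04.

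Over all of these lists, 63 of 82 genes were measured, and 4 of 63 lay outside the central 95% of genes of like signal. These 4 were *tup12*, *gaf1*, *isu1* and *cyc1*, each on the low side, and *cyc1* like *tup12* lay under all of its 200. Among the 10 iron genes 1, *fio1*, lay outside its range, also on the low side. A central 95% range leaves some genes outside on either side by construction. The share of all genes outside their own such range was not computed. The counts of 4 of 63 and 1 of 10 therefore do not show more genes outside than the range itself would leave.

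**Figure D5:**
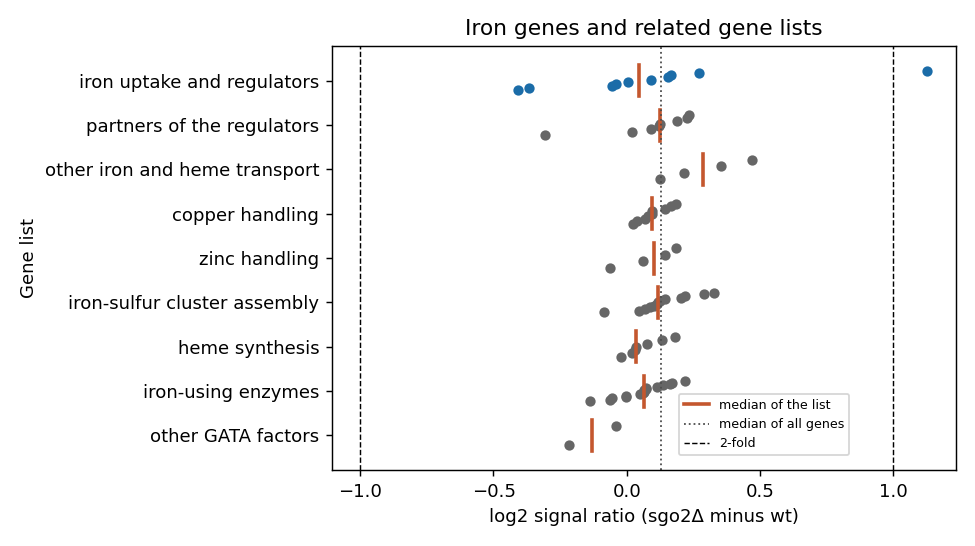
Log2 signal ratio (*sgo2*Δ minus wt, 1 array each) of the 10 iron genes (blue) and of the genes of 8 related lists (grey), with the median of each list (orange bar), the median of all genes (dotted) and 2-fold (dashed). Only *str3* passes 2-fold, and the lists centre between -0.13 and 0.29.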

How the data were processed

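Poly(A)-containing RNA of 1 wt and 1 *sgo2*Δ culture was measured on 1 array each. The authors used GCOS 1.4 with default settings for scanning and scaling and left *S. cerevisiae* probe sets out by a mask. The deposited values are therefore a scaled linear intensity, whose scale factor and target are not given in the sources used. Both arrays list 5748 of 10928 probe sets at 0, so the median of either column is 0.

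Gene names came from the platform annotation, updated by the gene table of ASM294v3. Probe sets naming 1 nuclear gene were used (2917 probe sets for 2899 genes), and 2062 with no gene name and 20 with several were not used here. The log2 signals, averaged where a gene had several probe sets, were subtracted (*sgo2*Δ minus wt). The floor of 100, the 2-fold threshold and the gene lists, matched by exact symbol, were chosen with earlier results of these data known, as were the 10 genes. The genes named in the text were every iron gene, every partner of the regulators, every further transport gene, the extremes of each other list and nearby measured genes. *cdc22*, *rho1*, *yak3* and *pcr1* were named after their values were seen. The range of genes of like signal takes the 200 genes nearest in mean log2 signal, without the iron genes and *sgo2*, and holds no variation between cultures. Alternatives were floors of 50, 200 and none, centring, quantile normalization, a pseudocount of 100, signals under 100 set to 100, a 1.5-fold threshold, the brightest probe set and all probe sets. Sequences were not analysed here. Tools were matplotlib 3.10.9, scipy 1.17.1, pandas 2.3.3, numpy 2.4.6 and Python 3.11.15.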

Additional observations from a re-analysis of the deposited data

How the results depend on the processing

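No paired analysis was possible because there was a single array for wt and for *sgo2*Δ, and no replicate could be left out. The precision of *str3* is limited by its wt signal, which lay under 100. The number of iron genes called higher was 1 and became 0 with a floor of 200, after centring, with quantile normalization, with a pseudocount of 100 and with signals under 100 set to 100. With a floor of 200, *str3* and *fip1* were too dim to be counted, which left 8 of 10 genes. In none of the 10 settings was an iron gene called lower. The 1.5-fold threshold was applied only to the signals as deposited. After quantile normalization, tried only with the 2-fold threshold, *fio1* (-0.66) and *fip1* (-0.68) were more than 1.5-fold lower. Outside the range of genes of like signal, the count was 1 and became 2 (*fio1* and *str3*) with genes over 200 kb from the telomeres, an alternative chosen after seeing the data. The median of the 10 genes was -0.08 after centring and -0.13 with quantile normalization, against 0.05 as reported, while that of all genes was 0 and -0.02. The percent of all genes called higher was 0.862 with no floor, 0.358 with quantile normalization, 1.0014 at 1.5-fold and 1.404 over all probe sets. The percent called lower was 0.172 with no floor, 0.0715 with quantile normalization, 0.107 at 1.5-fold and 0.0210 over all probe sets. Centring removes the shift of 0.13 by construction. It took the list medians to -0.0047 for partners of the regulators, -0.034 for copper handling, -0.012 for iron-sulfur cluster assembly, -0.095 for heme synthesis and -0.065 for iron-using enzymes. With quantile normalization they were -0.015 for partners of the regulators, -0.054 for zinc handling, -0.053 for iron-sulfur cluster assembly, -0.082 for heme synthesis and -0.037 for iron-using enzymes. Otherwise the cause was not tested. Of 50 values of single iron genes under an alternative, 46 differed from the reported one by less than the SD of like-signal genes. The 4 others were *str1* (-0.22) and *php4* (-0.02) with quantile normalization, and *str3* with a pseudocount (0.55) and with signals under 100 set to 100 (0.50). Against the smaller SD of like-signal genes over 200 kb from the telomeres, an alternative chosen after seeing the data, 12 of the 50 went beyond it. The 8 more were *str3*, *fio1*, *fip1*, *frp1*, *sib1* and *fep1* with quantile normalization, and *sib1* and *php4* with centring.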
